A study of Mus musculus with 6 samples.

Results

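Galectins are small carbohydrate-binding proteins that recognise galactose-containing sugars on glycoproteins and glycolipids. They are made without a signal peptide and act inside the cell, on its surface and in the matrix, where they crosslink glycoproteins, and inside the cell they also bind sugars exposed on damaged vesicles. Prototype members carry a single carbohydrate recognition domain, the chimera member joins that domain to a long repetitive tail, and tandem-repeat members carry a pair of domains. In tumours the family is known for roles in adhesion, migration and immune evasion.

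The genes described here were 7 of the 19179 listed in the series: the prototype galectins Lgals1 and Lgals7, the chimera galectin Lgals3, the tandem-repeat galectins Lgals4, Lgals8 and Lgals9, and Lgals3bp, which encodes a secreted glycoprotein that binds galectins and is not itself one. They were chosen by symbol, from a list drawn up with their RPKM in these 6 libraries already known. Their values below are therefore a description without a test, and they were selected on the same contrast that is described. All 7 were found in the files, and 6 of the 7 passed the filter on low values, which kept a gene when 3 or more libraries reached 1 RPKM (reads per kilobase of gene, scaled to the read total of the library). Lgals4 did not pass. Lgals7 passed only through the libraries of the other clones, so a gene like it had to differ to be kept.

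The libraries came from 4T1, a mouse mammary carcinoma line of the BALB/C strain, without any treatment or engineered allele named in the labels. Single cells were grown in wells of 96-well plates for 14 days, and 10 clones of each of the kinds named SC and NSC were picked at random, in batches from 3 independent experiments. The 3 libraries labelled breast cancer stem cell are called stem-labelled here, and the 3 labelled breast cancer cell are called other. How a clone was assigned to its kind is not given in the sources used here, nor is whether each library pooled 10 clones, and the p-values below measure only the spread between these libraries. The series title speaks of cell states and metastatic competence, and the comparison made here is between the levels of the galectin genes in the groups.

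Reads assigned to genes numbered 21196572 to 22838870 in stem-labelled libraries and 15357608 to 16830762 in other libraries. They were 0.658 to 0.757 of the total read number implied by the authors' RPKM in stem-labelled libraries and 1.23 to 1.53 of it in other libraries, so rescaling to the reads in genes moved the median log2 difference of all tested genes to 0.86, against 0.11 on the deposited scale. Of 10097 genes tested, 3014 were called higher and 2563 lower in stem-labelled clones on the deposited scale (54.0% of calls higher), against 5926 higher and 1245 lower (82.6% higher) after rescaling and 3896 higher and 2126 lower (64.7% higher) with upper-quartile scaling. The 6 epithelial markers of the line summed to 913 to 1400 RPKM in stem-labelled libraries and 1872 to 3493 RPKM in other libraries, and 4 of the 6 stood at 1 RPKM or above in every library. Krt19 ranged over 0.0379 to 9.49 RPKM in stem-labelled libraries and 16.7 to 96.1 RPKM in other libraries, and Cldn7 over 0.0180 to 0.175 RPKM in stem-labelled libraries and 0.536 to 29.0 RPKM in other libraries. Cdh1 went the other way, at 59.8 to 77.8 RPKM in stem-labelled libraries and 13.7 to 17.5 RPKM in other libraries, and Epcam overlapped, at 50.2 to 59.8 RPKM in stem-labelled libraries and 53.5 to 58.5 RPKM in other libraries. Myeloid markers summed to 12.6 to 40.2 RPKM in stem-labelled libraries and 6.09 to 29.5 RPKM in other libraries, nearly all of it Cd68, with Ptprc, Itgam and Csf1r at or near 0 in all 6. The fibroblast markers summed to 1.68 to 3.39 RPKM in stem-labelled libraries and 0.430 to 1.02 RPKM in other libraries, nearly all of it Pdgfra, and the endothelial markers to at most 0.116 RPKM.

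The sugar contacts of a galectin are made by residues that recur among recognition domains, and their codons separate the 6 galectins described here from Lgals3bp. In the GENCODE M21 coding sequences on GRCm38, a stretch with the spacing histidine, asparagine, proline and arginine followed by tryptophan and glutamate was found in 9 places among the 6 galectins, 1 in each of Lgals1, Lgals3 and Lgals7 and 2 in each of Lgals4, Lgals8 and Lgals9. It was found 0 times in Lgals3bp. Of the family genes outside the members, Lgals2 held 1 such stretch and Grifin, Lgals12 and Lgalsl held 0, so its absence does not mark a gene as outside the family. The stretches, 69 to 84 bases long, are shown because they mark which members can be read as 1 domain and which as 2, and because they show how far the members differ in sequence. Capitals mark the codons of the histidine, asparagine, arginine, tryptophan and glutamate.
Lgals1 (chr15:78929676-78929759, plus strand): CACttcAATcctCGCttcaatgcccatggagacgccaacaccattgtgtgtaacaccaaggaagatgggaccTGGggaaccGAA
Lgals7 (chr7:28865586-28865657, plus strand): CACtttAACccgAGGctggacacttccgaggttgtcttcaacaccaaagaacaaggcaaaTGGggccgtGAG
Lgals3 (chr14:47384642-47384722, plus strand): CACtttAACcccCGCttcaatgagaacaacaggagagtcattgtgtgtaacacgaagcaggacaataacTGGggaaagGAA
Lgals4 domain 1 (chr7:28835879-28835953, plus strand): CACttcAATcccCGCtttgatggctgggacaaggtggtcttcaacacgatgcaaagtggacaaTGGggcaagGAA
Lgals4 domain 2 (chr7:28841191-28841259, plus strand): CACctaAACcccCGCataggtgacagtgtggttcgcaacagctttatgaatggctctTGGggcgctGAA
Lgals8 domain 1 (chr13:12454813-12454887, minus strand): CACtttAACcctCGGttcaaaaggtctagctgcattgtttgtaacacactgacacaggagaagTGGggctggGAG
Lgals8 domain 2 (chr13:12447195-12447266, minus strand): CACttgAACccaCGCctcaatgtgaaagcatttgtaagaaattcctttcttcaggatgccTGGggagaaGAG
Lgals9 domain 1 (chr11:78973066-78973140, minus strand): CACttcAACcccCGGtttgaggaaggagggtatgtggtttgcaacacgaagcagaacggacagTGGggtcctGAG
Lgals9 domain 2 (chr11:78965743-78965814, minus strand): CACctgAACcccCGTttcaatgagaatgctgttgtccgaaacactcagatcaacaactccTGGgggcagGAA
The closest stretches were those of Lgals1 and Lgals3, equal at 80.0% of aligned bases, and the farthest were those of Lgals7 and the second domain of Lgals8, equal at 47.2%. Over stretches of 50 bases the genes were nearly distinct among GENCODE M21 transcripts, which was not set against the length of the reads. Of 50-base stretches in the longest transcript of each of the 7 genes, 0% occurred in a transcript of another gene for every member except Lgals8, where 1.47% did.

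Lgals1, the prototype galectin that is secreted by many tumours and binds branched and core sugars of cell-surface glycoproteins, was the most abundant member in every library. It lies on GRCm38 chromosome 15 at 78926725 to 78930465 on the plus strand (ENSMUSG00000068220), with a deposited gene length of 800 bases. Lgals1 stood at 12568, 11849 and 5516 RPKM in stem-labelled replicates 1 to 3, against 103276, 68327 and 73217 RPKM in other replicates 1 to 3. Every stem-labelled library was below every other library, and the lowest other value was far above the highest stem-labelled value. The means were 9978 ± 3880 RPKM in stem-labelled clones and 81606 ± 18925 RPKM in other clones (SD, n = 3 each), a ratio of 0.122. Of all reads in genes, Lgals1 took 1.33%, 1.26% and 0.670% in stem-labelled libraries and 5.85%, 4.43% and 3.83% in other libraries. Among all listed genes it ranked 1, 2 and 2 by RPKM in stem-labelled libraries and 1 in each other library, so it was at the top of the transcriptome in both groups despite the gap. The log2 difference on the log2(RPKM + 1) scale was -3.10 ± 0.60 (SE), and -1.86 ± 0.43 after a correction for gene length. In these bulk libraries, fewer cells with a transcript and less of it per cell cannot be told apart, which holds for each gene below.

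Lgals7, the prototype galectin typical of stratified epithelium, was at trace level in one group and low in the other. It lies on chromosome 7 at 28863853 to 28866284, plus strand (ENSMUSG00000053522), with a length of 927 bases. Lgals7 stood at 0.152, 0.284 and 0.0670 RPKM in stem-labelled libraries, from 4, 8 and 2 reads, against 6.61, 5.89 and 7.50 RPKM in other libraries, from 73, 68 and 70 reads. The groups did not overlap, and the other libraries lay close together. The means were 0.168 ± 0.110 RPKM in stem-labelled clones and 6.67 ± 0.804 RPKM in other clones (SD, n = 3 each), a ratio of 0.0251 that rests on 14 reads in stem-labelled clones and 211 in other clones. The log2 difference was -2.71 ± 0.18 (SE) with a pseudocount of 1, which understates the gap of a gene this low, and -4.74 with a pseudocount of 0.1. It was -1.55 ± 0.16 after the length correction.

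Lgals3, the chimera galectin found in cytoplasm, nucleus and on damaged lysosomes, did not separate the groups. It lies on chromosome 14 at 47367751 to 47386160, plus strand (ENSMUSG00000050335), with a length of 1858 bases. Its level was 480.0, 434 and 261 RPKM in stem-labelled libraries, against 476, 537 and 339.9 RPKM in other libraries. In each group the third replicate was the lowest, and the groups overlapped over most of their range. The means were 392 ± 115 RPKM in stem-labelled clones and 451 ± 101 RPKM in other clones (SD, n = 3 each). The log2 difference of -0.22 ± 0.34 was smaller than its standard error and changed sign with the scale, to 0.40 ± 0.29 after the length correction and 0.72 after rescaling to the reads in genes. Without stem-labelled replicate 3 it was 0.04. Set against the median of all tested genes on the same scale, Lgals3 was at -0.34 on the deposited scale and -0.14 after rescaling.

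Lgals3bp, the secreted scavenger-receptor family glycoprotein named for its binding to Lgals3, lies on chromosome 11 at 118392751 to 118402092, minus strand (ENSMUSG00000033880), with a length of 2847 bases. It stood at 32.8, 57.7 and 37.2 RPKM in stem-labelled libraries, against 34.5, 17.8 and 5.62 RPKM in other libraries. On this scale the groups overlapped because other replicate 1 exceeded stem-labelled replicate 1, while the remaining other libraries were below every stem-labelled one. By share of reads in genes they did not overlap, at 0.0124% to 0.0218% in stem-labelled libraries and 0.00105% to 0.00695% in other libraries. The means were 42.6 ± 13.3 RPKM in stem-labelled clones and 19.3 ± 14.5 RPKM in other clones (SD, n = 3 each). The highest library was 1.76 times the lowest in stem-labelled clones and 6.13 times in other clones, the widest span within the other clones among the 6 members measured above 0 there. The log2 difference was 1.37 ± 0.52 (SE). It was 0.71 without other replicate 3 and 2.25 after rescaling to the reads in genes. Set against the median of all tested genes on the same scale, it was 1.25 on the deposited scale and 1.39 after rescaling.

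The tandem-repeat galectins differed from one another. Lgals9, a galectin of immune regulation and of lysosome damage responses, lies on chromosome 11 at 78962974 to 78984946, minus strand (ENSMUSG00000001123), with a length of 2137 bases. It stood at 7.03, 15.3 and 8.09 RPKM in stem-labelled libraries, against 22.6, 22.8 and 16.2 RPKM in other libraries. The groups did not overlap on this scale, but stem-labelled replicate 2, at 15.3 RPKM, came close to other replicate 3, at 16.2 RPKM. By share of reads in genes the groups did overlap. The shares were 0.00199%, 0.00433% and 0.00263% in stem-labelled libraries and 0.00342%, 0.00395% and 0.00227% in other libraries. The means were 10.1 ± 4.48 RPKM in stem-labelled clones and 20.5 ± 3.74 RPKM in other clones (SD, n = 3 each), and the log2 difference was -1.01 ± 0.29 (SE). It was -0.54 ± 0.28 after the length correction and -0.13 ± 0.31 after rescaling to the reads in genes. Set against the median of all tested genes on its own scale, it was -1.12 on the deposited scale and -0.99 after rescaling.

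Lgals8, the galectin that detects ruptured vesicles from the cytosol, lies on chromosome 13 at 12439415 to 12464944, minus strand (ENSMUSG00000057554), with a length of 3688 bases. Its level was 4.81, 5.97 and 6.51 RPKM in stem-labelled libraries, against 3.57, 4.16 and 3.34 RPKM in other libraries. The stem-labelled libraries were all above the other libraries, by a small margin. The means were 5.76 ± 0.870 RPKM in stem-labelled clones and 3.69 ± 0.424 RPKM in other clones (SD, n = 3 each), with a log2 difference of 0.52 ± 0.19 (SE) and of 1.29 after rescaling. Set against the median of all tested genes on the same scale, the difference was 0.41 on the deposited scale and 0.43 after rescaling. The exons of Lgals8 share 155 bases with Heatr1 on the opposite strand. Whether counting used strand is not given in the sources used here, so reads from that overlap cannot be told apart.

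Lgals4, a galectin of the intestinal epithelium, lies on chromosome 7 at 28833854 to 28841708, plus strand (ENSMUSG00000053964), with a length of 2315 bases. It had 10, 5 and 19 reads in stem-labelled libraries (0.152, 0.0712 and 0.255 RPKM) and 0 reads in each of the other libraries. Taking 3 reads over the other clones as the limit that a count of 0 allows, the pooled level of Lgals4 in stem-labelled clones was 4.29-fold that limit on the RPKM scale. On reads per reads in genes it was 8.22-fold the limit. These folds allow for counting error in the other clones only, not in the 34 reads of the stem-labelled clones, and so are not lower bounds. The level was below the filter in every library.

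**Figure D1:**
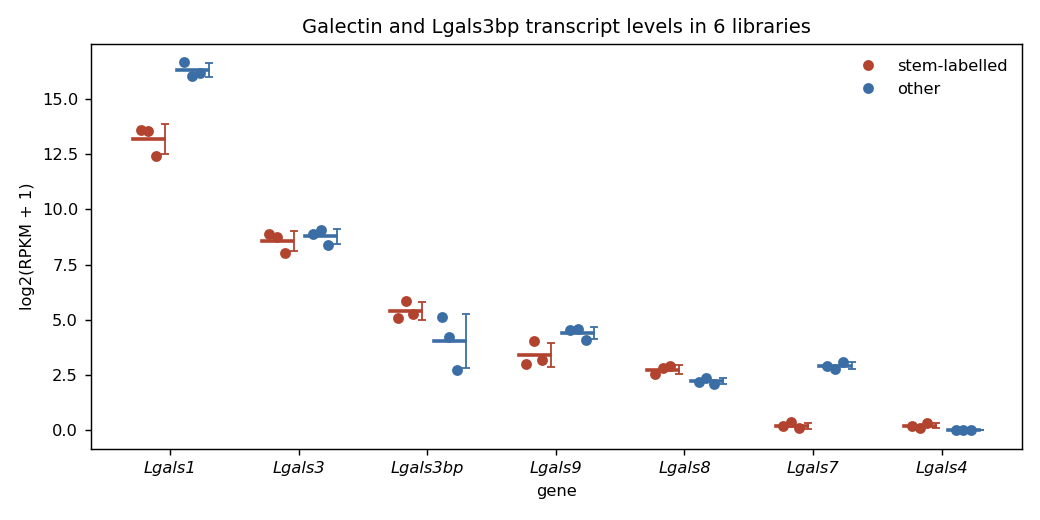
Levels of the 7 genes as log2(RPKM + 1) on the vertical axis, with stem-labelled clones left of other clones for each gene. Points are libraries in replicate order, horizontal bars are group means and error bars are the SD (n = 3 each). On this scale Lgals1, Lgals9 and Lgals7 lie lower in stem-labelled clones without overlap, Lgals8 and Lgals4 higher without overlap, and Lgals3 and Lgals3bp overlap.

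On the deposited scale, 2 of the 7 genes had every stem-labelled library above every other library, 3 had every stem-labelled library below, and 2 overlapped. Of the 6 that passed the filter, Lgals8 alone was above on that scale. By share of reads in genes, Lgals9 overlapped and Lgals3bp was above without overlap. Over all 10097 tested genes, 35.7% had groups that did not overlap with stem-labelled clones higher and 27.8% with stem-labelled clones lower, and nothing is read from the members' counts against these shares, since the members were chosen on this contrast. The median log2 difference of the 6 members was -0.62 on the deposited scale, -0.07 after the length correction and 0.29 after rescaling, where the medians of all tested genes were 0.11, 0.10 and 0.86. Nothing is read from these medians either, for the same reason and because Lgals7 passed the filter only through the other clones.

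The order of the members by RPKM differed in its lower part between the groups. In stem-labelled clones it ran Lgals1, Lgals3, Lgals3bp, Lgals9, Lgals8, and then Lgals7 and Lgals4 together. Each neighbour in that order was separated from the next over the 3 libraries except Lgals7 and Lgals4, whose ranges of 0.0670 to 0.284 RPKM and 0.0712 to 0.255 RPKM overlapped. In other clones it ran Lgals1, Lgals3, Lgals9, Lgals3bp, Lgals7, Lgals8 and Lgals4. There the range of Lgals3bp, 5.62 to 34.5 RPKM, enclosed those of Lgals9 and Lgals7, so these neighbours did not differ beyond their spread. By RPKM, Lgals7 thus stood above Lgals8 in each other library and far below it in each stem-labelled library. The lengths of these genes are 927 and 3688 bases, and this order keeps any effect of gene length. By reads, Lgals7 was below Lgals8 in the other libraries too, with 73, 68 and 70 against 157, 191 and 124.

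Ratios between members within a library do not depend on the scale of that library, although they keep any effect of gene length. The RPKM ratio of Lgals1 to Lgals3 was 26.2, 27.3 and 21.1 in stem-labelled libraries, against 217, 127 and 215 in other libraries. The ratio of Lgals9 to Lgals8, both tandem-repeat genes, was 1.46, 2.56 and 1.24 in stem-labelled libraries, against 6.33, 5.48 and 4.86 in other libraries. Neither ratio overlapped between the groups. This is not a separate result, since it follows from the levels given above for members chosen on this contrast. On the deposited scale Lgals9 was lower and Lgals8 higher in every stem-labelled library, and the gap of Lgals1 exceeded the spread of Lgals3. Lgals1 made up 95.2% to 96.3% of the summed RPKM of the 6 galectins in stem-labelled libraries and 99.2% to 99.5% in other libraries, and the share of Lgals3 was 3.53% to 4.51% in stem-labelled libraries and 0.458% to 0.780% in other libraries. Together the 6 galectins took 1.45%, 1.37% and 0.750% of reads in genes in stem-labelled libraries, against 5.92%, 4.52% and 3.87% in other libraries. The ratio of Lgals3bp to Lgals3 was 0.0684, 0.133 and 0.142 in stem-labelled libraries and 0.0724, 0.0332 and 0.0165 in other libraries, where other replicate 1 exceeded stem-labelled replicate 1.

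**Figure D2:**
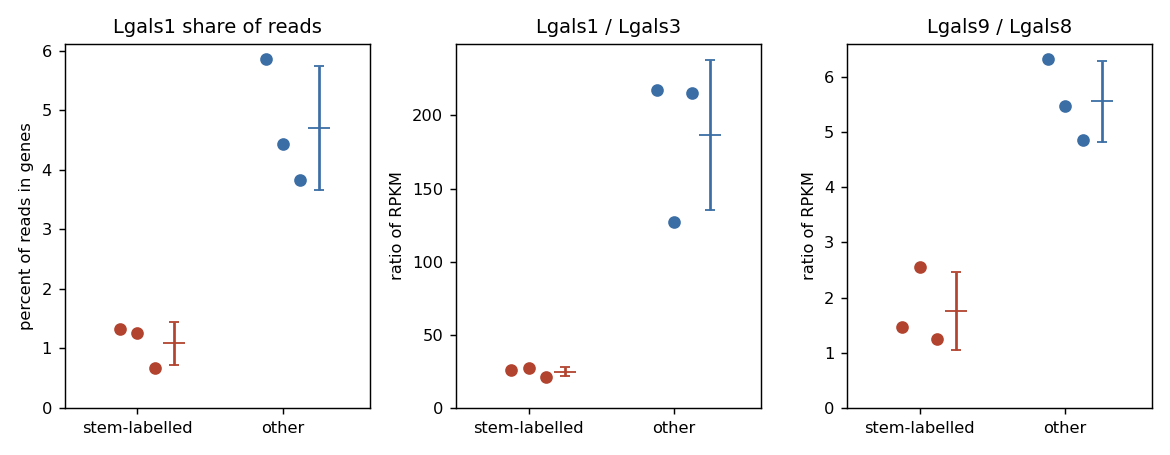
Left, percent of reads in genes taken by Lgals1; middle, RPKM ratio of Lgals1 to Lgals3; right, RPKM ratio of Lgals9 to Lgals8, each with stem-labelled clones left of other clones. Points are libraries and the bars give the mean and SD (n = 3 each). Each measure is lower in all 3 stem-labelled libraries than in all 3 other libraries. The ratios restate the levels of members chosen on this contrast.

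Gene length moved with the difference between the groups over the whole transcriptome, and the members differ in length. Among the tested genes of the shortest length decile, 57 to 1075 bases, which holds Lgals1 and Lgals7, 5.24% were called higher and 61.1% lower in stem-labelled clones, with a median log2 difference of -1.17. In the longest decile, from 8323 bases, 59.6% were called higher and 4.76% lower. Lgals1 at -3.10 and Lgals7 at -2.71 lay below the median of their decile, and Lgals9 at -1.01 lay below the median of -0.31 for genes of 1790 to 2425 bases. Lgals3, in the same decile as Lgals9, was at -0.22. Lgals3bp at 1.37 lay above the median of -0.07 for genes of 2426 to 3010 bases, and Lgals8 at 0.52 above that of 0.21 for genes of 3635 to 4339 bases. What gave the trend with length was not tested.

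**Figure D3:**
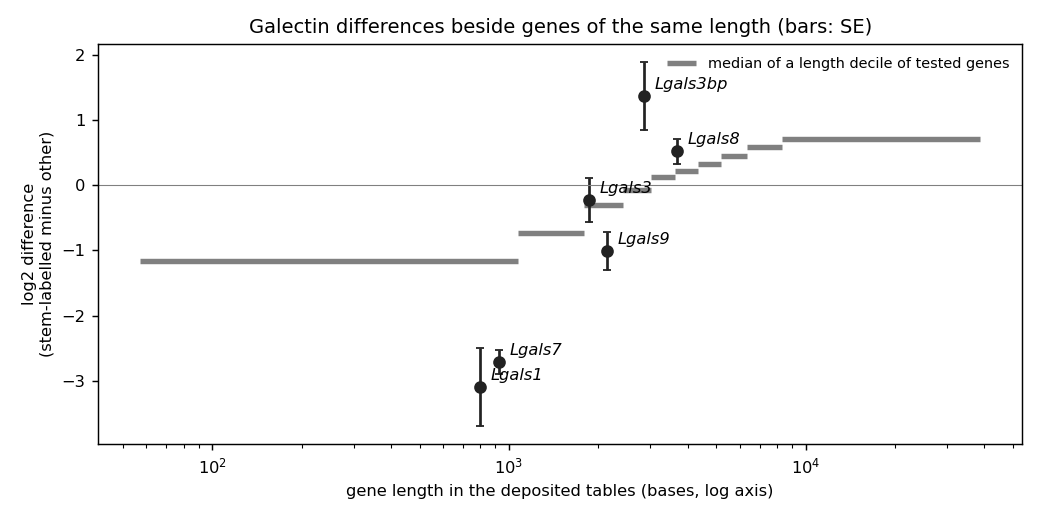
Log2 difference (stem-labelled minus other, log2(RPKM + 1)) of the 6 members that passed the filter against gene length in bases on a log axis, with error bars of 1 SE. Grey bars are the median differences of length deciles of the tested genes, which run from -1.17 in the shortest to 0.72 in the longest; Lgals1 and Lgals7 lie below theirs and Lgals3bp above.

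**Figure D4:**
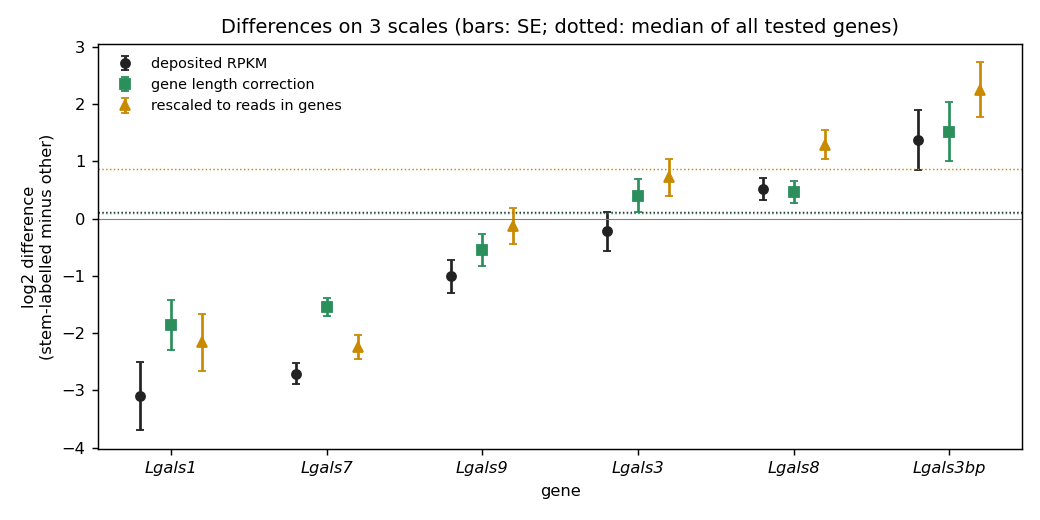
Log2 difference (stem-labelled minus other) of the same 6 genes on the deposited scale, after the gene length correction and after rescaling to reads in genes, with error bars of 1 SE and dotted lines at the median of all tested genes on each scale. Lgals1 and Lgals7 are below 0 and Lgals8 and Lgals3bp above 0 on all 3 scales. Lgals9 is at -1.01, -0.54 and -0.13, the last of these smaller than its SE of 0.31. Lgals3 is at -0.22, 0.40 and 0.72.

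Genes that make the sugars galectins bind, carry those sugars or act with galectins at damaged membranes were not among the members and were tested in the fit over all genes. Of 73 tested genes in 6 such lists, 33 were called higher and 6 lower in stem-labelled clones by limma with Benjamini-Hochberg adjustment, which is 45.2% and 8.22%. Over all tested genes the shares were 29.9% higher and 25.4% lower. The list genes were longer than most, and in the length decile of tested genes that holds the median length of 4 of the lists, 37.2% were called higher and 14.7% lower. Those 4 lists had 57.1% (N-glycan branching), 37.5% (O-glycan core), 33.3% (sialylation) and 35.3% (membrane damage) called higher. In the same order, 14.3%, 12.5%, 8.33% and 5.88% were called lower. The last 3 of these lists were thus near the decile in the share called higher. Ligands and counter-receptors had 60% called higher and 5% lower, against 42.6% and 10.9% in their own decile. After the length correction 28 list genes were called higher and 9 lower, beside 2859 higher and 2247 lower among all 10097 tested genes. After rescaling 53 list genes were called higher and 1 lower, beside 5926 higher and 1245 lower among all tested genes. Without other replicate 2, 3 list genes were called lower on the deposited scale.

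Among enzymes of N-glycan branching and lactosamine synthesis, 8 of 14 tested genes rose, 2 fell and 4 did not pass the test, with a median log2 difference of 0.92 (0.35 after the length correction). Mgat5 adds the branch of complex N-glycans that favours crosslinking by Lgals3. It stood at 2.81, 3.00 and 3.63 RPKM in stem-labelled libraries, against 0.897, 0.890 and 1.19 RPKM in other libraries, without overlap. Its log2 difference was 1.06 ± 0.18 (SE; limma adjusted p = 0.00111), and with the length correction the call was lost at 0.39 (limma adjusted p = 0.0822). B4galt1, a galactosyltransferase that completes the lactosamine unit galectins recognise, stood at 29.6, 27.2 and 31.8 RPKM in stem-labelled libraries, against 6.62, 6.89 and 8.23 RPKM in other libraries. Every stem-labelled library was above every other one, and B4galt1 rose by 1.89 ± 0.20 on the log2 scale (limma adjusted p = 0.000144) and kept its call with the length correction, at 1.73. Mgat2, which starts the second antenna of complex N-glycans, averaged 27.4 ± 1.70 RPKM in stem-labelled clones and 8.68 ± 3.16 RPKM in other clones (SD, n = 3 each). Man2a2, a Golgi mannosidase that trims N-glycans before branching, rose by 2.41 ± 0.24 (limma adjusted p = 0.000132) and the galactosyltransferase gene B4galt5 by 1.74 ± 0.25 (limma adjusted p = 0.000488). Both called decreases were in the same galactosyltransferase family. B4galt2 averaged 12.3 ± 4.24 RPKM in stem-labelled clones and 36.5 ± 14.1 RPKM in other clones (SD, n = 3 each; log2 difference -1.49 ± 0.34, limma adjusted p = 0.00475), a call lost after rescaling, at -0.60. B4galt3 was at -0.52 ± 0.19 (limma adjusted p = 0.0394), which became 0.23 after rescaling and lost its call when any library but other replicate 1 was left out. In the annotation, 28.2% of the exonic bases of B4galt2 and 14.5% of those of B4galt3 lie in exons of neighbouring genes.

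Of the 8 O-glycan core enzymes tested, 3 were called higher, 1 was called lower and 4 were not called (median log2 difference 0.26, or 0.0038 after the length correction). C1galt1, the galactosyltransferase that makes the core O-glycan bound by Lgals1, averaged 1.45 ± 0.711 RPKM in stem-labelled clones and 1.63 ± 0.593 RPKM in other clones (SD, n = 3 each), with overlapping groups and a log2 difference of -0.11 ± 0.26 (limma adjusted p = 0.723) that turned to 0.46 after rescaling. Its dedicated chaperone C1galt1c1 stood at 5.38, 5.10 and 4.46 RPKM in stem-labelled libraries, against 22.6, 7.93 and 39.9 RPKM in other libraries. The other libraries spread widely but all lay above the stem-labelled ones. C1galt1c1 fell by 1.78 ± 0.46 on the log2 scale (limma adjusted p = 0.00897), and the call was lost with the length correction, at -0.92. The genes that rose were Galnt1, Galnt4 and Galnt12, whose products add the first sugar of O-glycans, by 1.01 ± 0.21, 1.04 ± 0.21 and 0.81 ± 0.24. The call of Galnt12 was lost without stem-labelled replicate 1.

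Sialic acid caps decide which galectins can reach the galactose below them, and 4 of 12 tested genes of sialylation and desialylation rose, 1 fell and 7 did not pass, with a median of 0.27 (0.53 after the length correction, where 5 were called higher and 3 lower). St3gal1, which caps the core O-glycan, stood at 32.8, 57.0 and 44.5 RPKM in stem-labelled libraries, against 3.40, 6.61 and 3.23 RPKM in other libraries. The lowest stem-labelled value was well above the highest other value, and St3gal1 rose by 3.10 ± 0.29 (limma adjusted p = 0.000130), or 2.82 with the length correction. St6gal1, whose cap on N-glycans blocks Lgals1 from binding, stood at 6.13, 5.87 and 6.67 RPKM in stem-labelled libraries, against 2.15, 1.88 and 2.02 RPKM in other libraries. The libraries within each group were close together, and St6gal1 rose by 1.26 ± 0.18 (limma adjusted p = 0.000436), or 0.99 with the length correction. St3gal2, which caps O-glycans and glycolipids, rose by 1.20 ± 0.20. St6galnac4, which adds sialic acid to already sialylated O-glycans, fell by 0.74 ± 0.23 (limma adjusted p = 0.0196) on the deposited scale and turned to 0.10 after rescaling. It lost its call with upper-quartile scaling and without stem-labelled replicate 3 or other replicate 2.

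Among extracellular ligands and counter-receptors of galectins, 12 of 20 tested genes rose, 1 fell and 7 did not pass, with a median of 0.90 (0.45 after the length correction, where 8 were called higher and 0 lower). Lamp1, a lysosomal membrane glycoprotein rich in lactosamine chains, stood at 282, 333 and 347 RPKM in stem-labelled libraries, against 115, 140.3 and 116 RPKM in other libraries. All stem-labelled libraries were above all other libraries, and Lamp1 rose by 1.37 ± 0.25 (limma adjusted p = 0.00158). Lamp2, its close relative, rose by 0.88 ± 0.28 (limma adjusted p = 0.0228), a call lost with the length correction at 0.24 and when stem-labelled replicate 2 or 3 or other replicate 2 was left out. Itgb1, the beta subunit shared by many matrix receptors, was at 66.3, 66.0 and 129 RPKM in stem-labelled libraries and 61.3, 57.0 and 65.2 RPKM in other libraries. Its groups were separated by less than 1 RPKM, and the difference of 0.43 ± 0.30 did not pass (limma adjusted p = 0.240). The matrix genes Fn1, Lamc1 and Lamb1, for fibronectin and laminin chains, rose by 2.56 ± 0.33, 2.27 ± 0.19 and 1.51 ± 0.22. Spn, a heavily O-glycosylated leukocyte sialomucin and ligand of Lgals1, averaged 11.8 ± 1.99 RPKM in stem-labelled clones and 2.15 ± 0.432 RPKM in other clones (SD, n = 3 each; log2 difference 2.02 ± 0.21, limma adjusted p = 0.000148). Bsg, a glycoprotein that binds Lgals3, averaged 378 ± 75.1 RPKM in stem-labelled clones and 690 ± 130 RPKM in other clones (SD, n = 3 each; log2 difference -0.87 ± 0.31, limma adjusted p = 0.0363). It turned to 0.07 after rescaling, and its call was lost with the length correction, at -0.22, and when any library but other replicate 1 was left out.

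Of the genes that act with galectins at damaged membranes, 17 were tested, with 6 called higher, 1 called lower and 10 not called (median 0.46, or 0.04 after the length correction, where 5 were called higher and 3 lower). Calcoco2, the autophagy adaptor that binds Lgals8 in human cells, was listed at 0 in 5 of the 6 libraries and at 0.0383 RPKM in stem-labelled replicate 3, so it was not tested. Trim16, a ubiquitin ligase that works with Lgals3 at ruptured lysosomes, averaged 3.37 ± 0.569 RPKM in stem-labelled clones and 4.16 ± 0.477 RPKM in other clones (SD, n = 3 each), with overlapping groups (log2 difference -0.24 ± 0.19, limma adjusted p = 0.303, and 0.50 after rescaling). The autophagy receptor gene Optn rose by 1.14 ± 0.22 and its kinase Tbk1 by 0.97 ± 0.22. Rragc, a small GTPase of nutrient sensing on lysosomes, rose by 1.78 ± 0.21 (limma adjusted p = 0.000210), and Map3k7, a kinase upstream of energy and stress signalling, by 1.13 ± 0.29, a call lost with the length correction at 0.69. Lamtor1, which anchors the Rag GTPases to the lysosome, stood at 93.8, 82.3 and 67.5 RPKM in stem-labelled libraries, against 248, 267 and 182 RPKM in other libraries. The groups were far apart, and Lamtor1 fell by 1.50 ± 0.27 (limma adjusted p = 0.00136). Its deposited length is 1366 bases. In the GENCODE M21 annotation it has 3215 exonic bases, of which 18.7% lie in exons of another gene. The call of Lamtor1 was lost with the length correction, at -0.59, and after rescaling to the reads in genes, at -0.56.

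**Figure D5:**
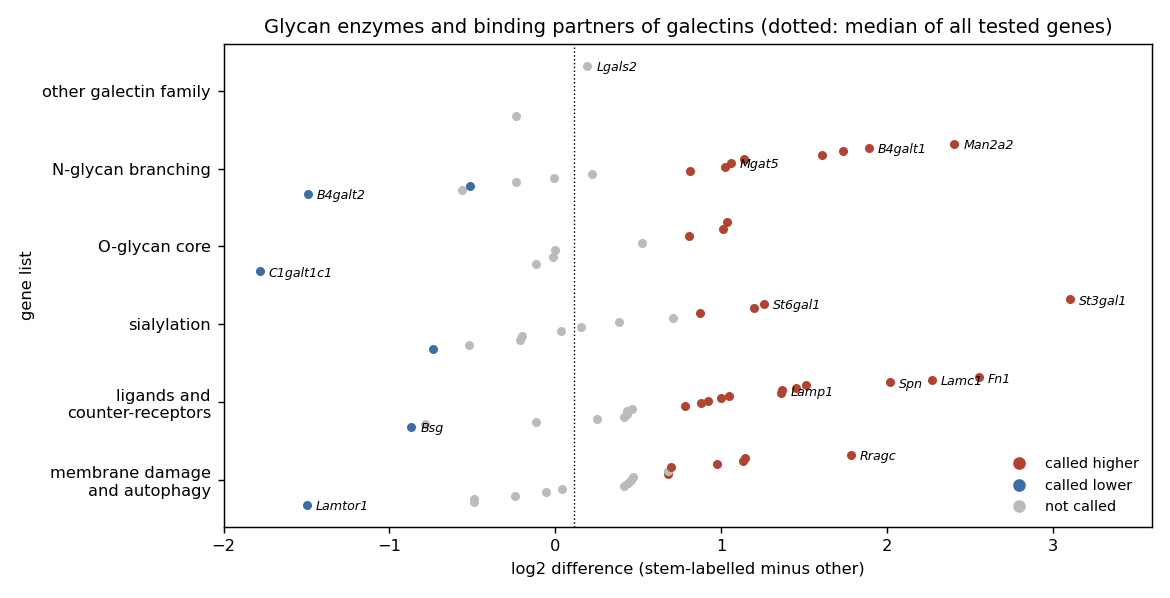
Log2 differences (stem-labelled minus other) of the 73 tested genes of the 6 lists, 1 point per gene and 1 row per list, coloured by the call at an adjusted p under 0.05, with a dotted line at the median of all tested genes, 0.11. Called increases outnumber called decreases, 33 to 6, and St3gal1 lies farthest to the right.

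Other genes of the galectin family were few. Lgals2, a prototype galectin, ranged over 2.56, 8.10 and 4.53 RPKM in stem-labelled libraries and 4.84, 6.67 and 1.68 RPKM in other libraries, with overlap and a log2 difference of 0.19 ± 0.43 (limma adjusted p = 0.719). With the length correction it was called higher, at 1.53 (limma adjusted p = 0.0317). Lgalsl, a galectin-related gene, was at -0.23 ± 0.25 (limma adjusted p = 0.451). Lgals12 had 0 reads in stem-labelled libraries and 6 reads in other libraries, and Grifin had 1 read in each group. Neither was tested.

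The 3 genes whose pattern over the 6 libraries was most like that of Lgals1, among 5947 genes with a mean of at least 5 RPKM, were Polrmt, Dapk3 and Dxo, each with a Pearson r of 0.999 on log2(RPKM + 1). Polrmt encodes the mitochondrial RNA polymerase, Dapk3 a serine/threonine kinase and Dxo an enzyme that degrades messengers with faulty caps. A total of 138 genes reached an r of at least 0.99 with Lgals1, so these 3 are not set apart from many others. For Lgals3 the genes were Rfx2, a transcription factor of ciliated cells, at 0.967, Ncdn at 0.966 and Foxred1, an assembly factor of a respiratory complex, at 0.960, and 0 genes reached 0.99. These correlations describe 6 libraries that share group, depth and the trend with length.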

How the data were processed

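Messenger RNA of 6 libraries was analysed, 3 from stem-labelled and 3 from other 4T1 clones, grouped by their tissue labels. The authors deposited RPKM, per the file headers, in 1 table of 19179 genes per library. The build mm9, TopHat2 2.0.9 and Bowtie2 2.0.6 appear, per the submitters' processing notes, without a role, and the counting program and strand are not given in the sources used here. Of the identifiers, 99.6% were in GENCODE M21, and the deposited coordinates of 80.5% of those equalled the GRCm38 ones, so coordinates are given on that build. Spreadsheet conversion of 25 symbols was undone by identifier. RPKM times gene length came out as whole multiples of 1 step in each library (tolerance 0.01), which gave the reads, and 1 read per kilobase was worth 0.0311 to 0.0993 RPKM.

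Differences were fitted by limma 3.58.1 (R 4.3.3) with a variance trend, on log2(RPKM + 1), over the 10097 genes that reached 1 RPKM in 3 or more libraries (9082 left out). Tests were two-sided at a Benjamini-Hochberg adjusted p of 0.05 over all tested genes. The length correction subtracted, per library, a natural spline (5 degrees of freedom) of log2 length fitted to the deviations from the gene means. The members and lists were chosen with earlier results of these data known. Named genes were all 7 members, up to 4 called and non-overlapping genes per list and direction with a mean of at least 1 RPKM, 8 genes with a known tie to a galectin, and the 3 genes most like each of the 2 most abundant members. On simulated data with 200 changed genes, 10302 genes passed the filter. Of the changed genes that passed, 78.9% of the 2-fold and 100% of the 4-fold changes were recovered, with 22 calls among unchanged genes. The simulation had a fixed dispersion, no trend with length, RPKM scaled to the reads in genes and far fewer changed genes than were called here. Its rates therefore hold for that setting only. Alternatives were other scalings, filters and pseudocounts, the length correction, the replicate number as a block, limma without the trend, limma-voom on the recovered reads, and leaving out each library.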

Additional observations from a re-analysis of the deposited data

How the results depend on the processing

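The number of genes called, 5577, was 3477 with a filter on mean RPKM of at least 5, 5472 with limma-voom on recovered reads and 4747 to 5555 when 1 library was left out. After rescaling to the reads in genes, 5926 of all 10097 tested genes were called higher and 1245 lower. Of the list genes, 33 were called higher (53 after rescaling to reads in genes, 29 to 33 with 1 library left out) and 6 lower (1 after rescaling, 3 with upper-quartile scaling, 3 to 8 with 1 library left out, the 3 being without other replicate 2). Replicate numbers did not pair the libraries: same-numbered deviations from the group means correlated at -0.125, 0.0255 and -0.0848, and 0 of 3 numbers correlated best with its own. With the replicate number as a block, 5212 genes were called, 2735 higher and 2477 lower, and among the named list genes the calls of B4galt3 and Bsg were lost.

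Lgals1 was at -2.16 after rescaling and -1.86 with the length correction, with or without the block (1 library left out, -3.31 to -2.72). Lgals3, at -0.22, changed sign to 0.72 after rescaling, 0.04 with upper-quartile scaling, 0.40 with the length correction, with or without the block, and 0.04 without stem-labelled replicate 3 (lowest -0.41). Lgals7 was at -2.24 after rescaling, -1.55 with the length correction, with or without the block, -4.74 with a pseudocount of 0.1 and -5.50 with limma-voom (1 library left out, -2.79 to -2.64). Lgals8 was at 1.29 after rescaling and 0.74 with upper-quartile scaling (0.44 to 0.63), and Lgals9 at -0.13 after rescaling and -0.54 with the length correction, with or without the block (-1.32 to -0.81). Lgals3bp ranged over 0.71 to 1.92 with 1 library left out. After rescaling B4galt3 turned to 0.23, Bsg to 0.07, St6galnac4 to 0.10, C1galt1 to 0.46 and Trim16 to 0.50, and C1galt1 was also at 0.04 with upper-quartile scaling and without stem-labelled replicate 2 (1 library left out, -0.34 to 0.04). The calls of B4galt3, Bsg, C1galt1c1 and Lamp2 were lost without a filter, and that of Galnt12 with limma-voom. With upper-quartile scaling the calls of B4galt3, Bsg and St6galnac4 were lost. For the 30 named list genes, 426 of 472 alternative values kept the direction and the side of the threshold, 38 lost the call, 7 changed sign and 1 gained a call (Itgb1, 1.36 after rescaling). Apart from what each alternative's construction changes, the cause was not tested. The depth limits Lgals4 and Lgals7, which rest on 34 and 14 reads in stem-labelled clones.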
